A study of Mus musculus with 96 samples.

Results

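The spleen and marrow-containing bone both hold blood cells, and this comparison set the 6 spleen libraries against the 6 bone libraries over all genes, with genotype as a covariate. The members are 12 of the 96 libraries of a survey of 16 tissues: 3 wild-type and 3 *Scx*-/- libraries of each of the 2 tissues, picked by the tissue and genotype in their labels and not by any measured value. All mice were 3 weeks old, no treatment is named, and whole organs were frozen before total RNA was extracted. The *Scx*-/- mice lack scleraxis, a transcription factor of tendon and ligament cells. Nothing in the sources used here says which bone was taken, whether marrow was left in it, or whether muscle was cleaned from it. A number in a label (1 to 3) names a library and no label ties it to a mouse, so p-values measure the spread between these libraries. Globin and sex-linked counts by library number are given further on.

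In a mouse of this age the marrow is the main site of blood formation, and the red pulp of the spleen also makes red cells, filters old ones and recycles their iron. White pulp holds follicles of mature B cells and zones of T cells, which the stroma around them attracts with chemokines. Bone adds cells that marrow and spleen do not share: osteoblasts, which lay down collagen matrix, osteoclasts, which resorb it, and the chondrocytes of the growth plate. Levels below are in CPM, a gene's counts scaled to a common library total and not corrected for gene length. Differences are log2 differences, spleen minus bone, with the standard error (SE) from edgeR's quasi-likelihood fit. A gene is called where its Benjamini-Hochberg adjusted p over all genes tested is under 0.05. In bulk tissue, fewer cells of a type and less RNA per cell cannot be told apart.

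Total counts ran from 181627 to 467090 in the spleen and from 42272 to 240564 in the bone, so a single count was worth more in 5 of the 6 bone libraries than in any of the spleen. The 3 counts that a reading of 0 allows come to 1.94 CPM over the 6 spleen libraries together and to 4.77 CPM over the 6 bone libraries, and to as much as 71.0 CPM in the shallowest bone library. These limits cover counting error alone. *Scx* itself (chromosome 15, 76457452 to 76459458, GRCm38) had no count in any spleen library. In the bone it had 18, 2 and 0 counts in the wild-type libraries and 0 in all 3 *Scx*-/- libraries, where 0 of 407106 counts allows up to 7.37 CPM. The difference between spleen and bone did not pass (adjusted p = 0.10). The tissue labels were checked against markers. Osteoblast and osteocyte genes took 9.59% to 14.5% of counts in the bone and 0.155% to 0.307% in the spleen, and mature B cell genes took 0.264% to 0.654% in the spleen and 0.00710% to 0.0727% in the bone. Among the 16 tissues the spleen had the highest median share of the mature B cell, macrophage, erythroid and globin lists, and the bone that of the osteoblast and osteoclast lists.

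**Figure D1:**
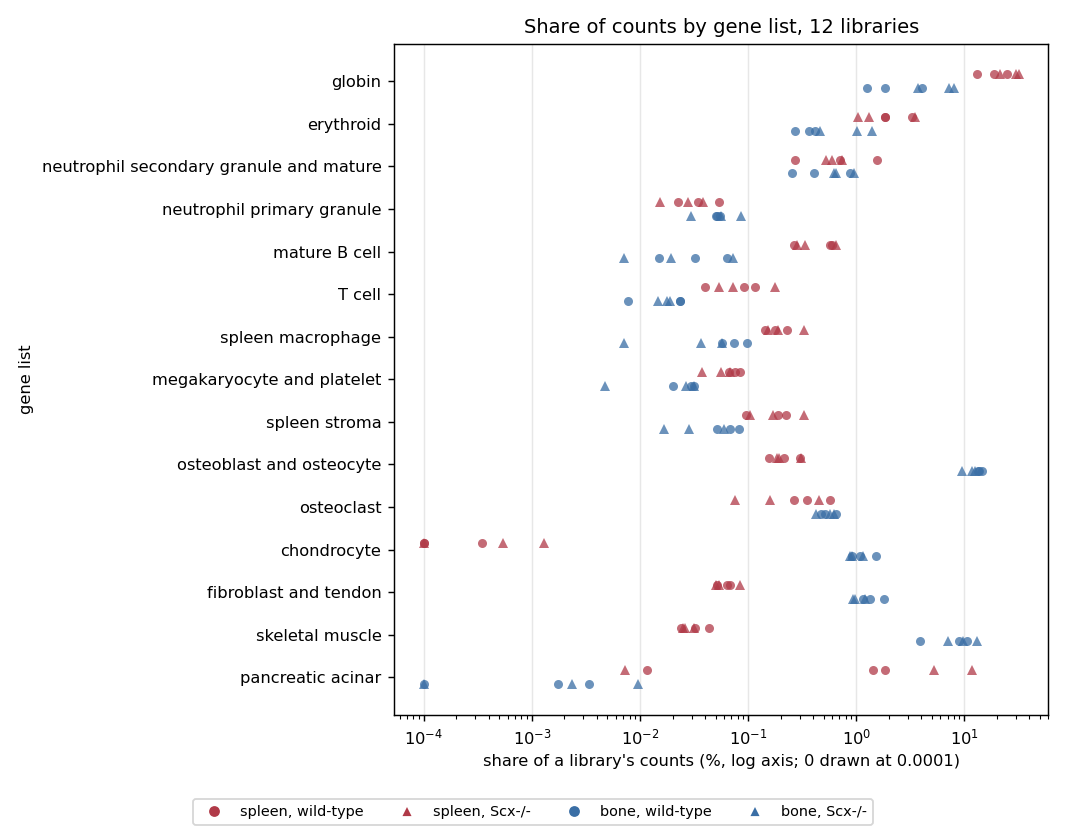
Each point is a library, placed by the share of its total counts that falls on a gene list (%, log axis), with spleen in red, bone in blue, circles for wild-type and triangles for Scx-/-. The neutrophil lists overlap between the tissues, the B cell and macrophage lists lie higher in all spleen libraries, and the skeletal muscle list takes 3.92% to 13.3% of the bone counts.

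Of 15424 genes with a count in any of the 12 libraries, 295 were higher in the spleen (1.91% of those tested) and 440 were higher in the bone (2.85%). The CPM of the tissues did not overlap for 144 of the 295 and for 194 of the 440, against 1.65% and 1.46% of all genes tested. The median log2 difference of all genes was 0.63 in this fit, 0.42 with a low-count filter and -0.0065 with DESeq2. The split moved with the scaling. When each library was scaled to its counts on 17 blood cell lists in place of TMM, the median fell to -0.82, and 76 genes were higher in the spleen (0.493%) and 1530 in the bone (9.92%), so that 4.73% of calls were toward the spleen in place of 40.1%. With DESeq2 the counts were 450 and 559. Of the genes higher in the spleen, 219 of 295 also had their highest mean CPM of the 16 tissues there, against 2297 of all 15424 genes. Of those higher in the bone, 131 of 440 were highest in bone, 99 in muscle and 46 in cartilage, against 1134, 393 and 362 of all genes. The calls partly fix these counts, since genes were picked for being higher in 1 of the 2 tissues. Bone was the highest tissue for 0 of the 295 and the spleen for 0 of the 440.

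The 10 genes with the largest difference toward the spleen, among 79 that were called, did not overlap and reached a mean of 100 CPM, were all at 0 in all 6 bone libraries. *Coch*, which encodes the secreted protein cochlin and is known from follicular dendritic cells as well as the inner ear, led them (chromosome 12, 51593341 to 51605771, GRCm38). Its lowest, median and highest CPM in the spleen were 200.3, 754 and 1206, and at 0 of 629368 bone counts it was at least 161-fold higher in the spleen (adjusted p = 5.3e-21). *Cxcl13*, the chemokine that draws B cells into follicles, had 42.2, 149 and 500.1 CPM in the spleen, at least 43.2-fold above the bone. *Cr2*, the complement receptor of mature B cells and follicular dendritic cells, had 42.7, 96.8 and 473 CPM, at least 34.3-fold above the bone. Genes of macrophages and sinus lining followed. *Marco*, a scavenger receptor of marginal zone macrophages, ran from 80.3 to 248 CPM, at least 35.1-fold higher, and *Stab2*, a scavenger receptor of sinus endothelium, from 42.2 to 275 CPM, at least 24.4-fold higher. The rest were *Fcna*, *Clec4n*, *Il2rg*, *Pttg1* and *AW112010*, each at least 23.6-fold higher in the spleen.

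**Figure D2:**
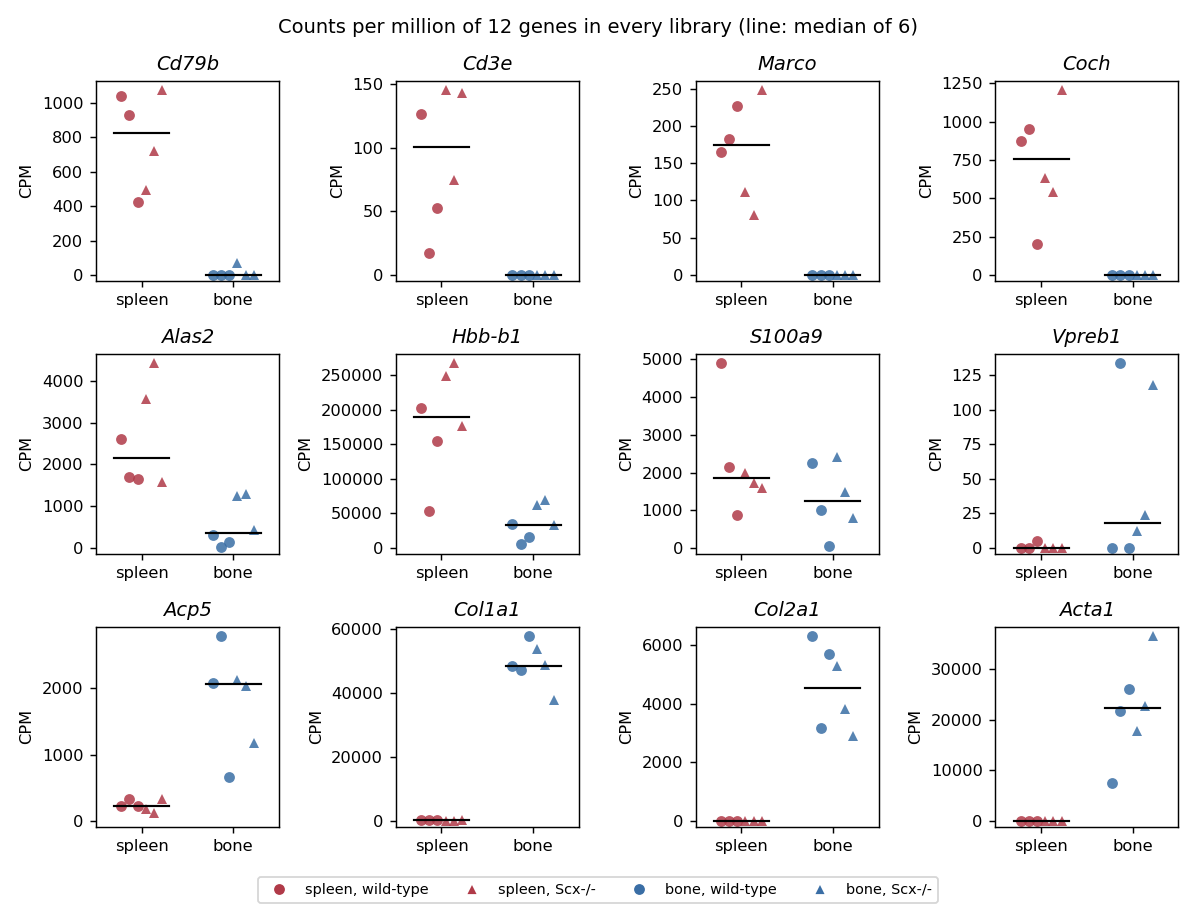
CPM of 12 genes in each library, with spleen in red and bone in blue, circles for wild-type, triangles for Scx-/- and a black line at the median of 6; each panel has its own linear axis starting at 0. Cd3e, Marco and Coch were at 0 in all 6 bone libraries, while S100a9 spans 870 to 4901 CPM in the spleen and 42.4 to 2403 CPM in the bone.

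Mature B cell genes were the clearest lymphoid difference. Of 25 on the list 24 could be tested, and 15 were higher in the spleen and none in the bone, against 1.91% of all genes. The median log2 difference was 4.04, or 3.97 with the 9 genes absent from the bone set at their lower bound. *Cd79b*, a signalling chain of the B cell receptor (chromosome 11, 106311341 to 106314762), had 427, 825 and 1074 CPM in the spleen and 0, 0 and 70.7 in the bone, where 5 of 6 libraries held no count. Its difference was 5.83 (SE 0.70, adjusted p = 1.8e-14). *Igkc*, the constant region of the kappa light chain, had 306, 397 and 694 CPM against 0, 4.02 and 100.4. *Ms4a1*, which encodes CD20, had 84.3, 276 and 407 CPM against 0, 4.33 and 62.4. In each of these genes the lowest spleen library was above the highest bone library. *Cxcr5*, the receptor for the follicular chemokine above, *Bank1*, *Btla* and *Fcer2a* were called with no count in the bone. When libraries were scaled to the blood cell lists, 8 of the 24 were still higher in the spleen and the median was 2.84.

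The antigen-presentation genes could be read only in part. Of 10 class II genes, 8 were at 0 in all 96 libraries, *H2-Aa*, *H2-Ab1* and *H2-Eb1* among them. So were 106 of the 111 annotated genes that lie between *H2-K1* and *H2-Q10* on chromosome 17 (33996017 to 35474563), and the class I genes *H2-K1* and *H2-D1* had 1 and 9 counts in the whole series. No level in either tissue can be read from that stretch. The 2 members outside it were both called. *Cd74*, the invariant chain that escorts class II molecules, had 462, 768 and 1156 CPM in the spleen and 0, 20.8 and 166 in the bone, a difference of 4.92 (SE 0.67, adjusted p = 3.3e-11). *Ciita*, the class II transactivator, had 5.27, 98.5 and 154 CPM against 0 in every bone library, at least 17.7-fold higher (adjusted p = 0.0027). *Ighm* and *Ighd*, the heavy chains of naive B cells, had 10 and 2 counts in all 96 libraries and give no reading either.

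T cell genes lay in the same direction with less depth behind them. Of 26 on the list 23 were tested, 7 were higher in the spleen and none in the bone, and 15 had no count in the bone. The median was 4.49 as fitted and 2.44 at the lower bounds. *Cd3e*, a chain of the T cell receptor complex, ran from 17.2 to 145 CPM in the spleen with a median of 101 (adjusted p = 0.0015), and the chemokine receptor *Ccr7* from 15.8 to 111 CPM, at least 14.9-fold above the bone. *Cd3g*, *Cd4*, *Cd6*, *Lat* and *Ms4a4b* were also called. *Tcf7*, the most abundant member, was not, at 15.8, 70.1 and 352 CPM against 0, 38.2 and 66.9 (adjusted p = 0.30). None of 8 natural killer and cytotoxic genes passed, although *Klrd1* had a median of 38.7 CPM in the spleen and no bone count (adjusted p = 0.053). *Il2rg*, the shared cytokine receptor chain of lymphocytes and 1 of the 10 genes above, had 51.3, 147 and 314 CPM in the spleen. Of 15 genes common to leukocytes, 8 were higher in the spleen, with a median of 2.68. *Ptprc*, which encodes CD45, had 58.0, 272 and 410.4 CPM against 0, 0 and 34.7, and *Tmsb4x*, a binder of actin monomers, 3262, 4876 and 6574 against 318, 1687 and 1991.

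Macrophage genes of the red pulp and the marginal zone were higher in the spleen in 7 of 18 tested and in none in the bone, with a median of 2.71. Scaled to the blood cell lists, 1 of 18 macrophage, 1 of 15 dendritic cell, 3 of 23 T cell, 2 of 15 leukocyte and 1 of 12 megakaryocyte genes were called higher in the spleen, against 0.493% of all genes. *Vcam1*, an adhesion molecule that red pulp macrophages carry, had 94.9, 327 and 710.2 CPM against 0, 27.9 and 166 (difference 3.29, SE 0.73). *Slc40a1*, the iron exporter ferroportin, had 167, 229 and 284 against 0, 12.5 and 173, where the highest bone library lay inside the range of the spleen. *Spic*, the transcription factor that red pulp macrophages need, had 31.6 to 88.1 CPM in the spleen and no bone count. *Marco*, *C1qa*, *Cd5l* and *Slc11a1* were the other called members, while *Axl* at 79.0, 113 and 347 CPM against 0, 48.9 and 669 was not (adjusted p = 0.63). Dendritic cell genes were called toward the spleen in 4 of 15, among them *Irf8*, a transcription factor of that lineage, at 94.0, 138 and 248 CPM against 0, 6.24 and 21.2. The fitted median was 3.17 and fell to 1.02 at the lower bounds. Of 13 spleen stroma genes 4 were called, *Coch*, *Cxcl13*, *Stab2* and *Tcf21*, and *Mfge8* at 167, 511 and 1057 CPM against 166, 394 and 728 was not (adjusted p = 0.55).

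**Figure D3:**
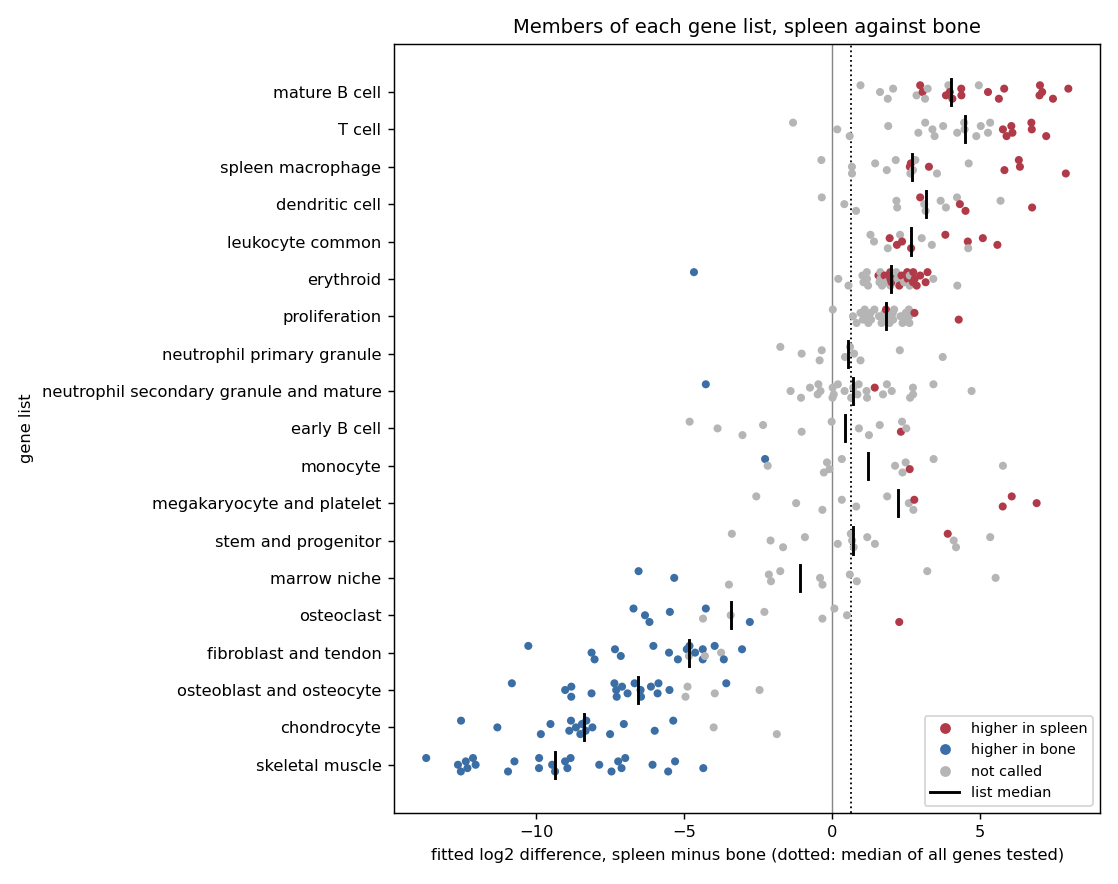
Each point is a tested member of a gene list, placed by its fitted log2 difference between spleen and bone, red where called higher in the spleen, blue where called higher in the bone and grey where not called; black bars are list medians and the dotted line is the median of all genes, 0.63. Among the lists drawn, which leave out the class II and pancreatic lists, medians run from -9.37 for skeletal muscle to 4.49 for T cells, and both neutrophil lists sit next to the dotted line.

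Erythroid genes were higher in the spleen in many members, although here the tissues overlapped. Of 38 tested, 17 were higher in the spleen and 1 in the bone, with a median of 2.01. The list's share of counts was 1.03% to 3.53% in the spleen and 0.271% to 1.40% in the bone. *Alas2*, the first enzyme of heme synthesis in red cells, had 1591, 2161 and 4424 CPM in the spleen and 33.5, 365 and 1296 in the bone, a difference of 2.80 (SE 0.43, adjusted p = 1.2e-08), and was the 1 called member whose tissues did not overlap. *Slc4a1*, the band 3 anion exchanger, had 943, 1999 and 4993 against 335, 691 and 1363. *Rhd*, a Rh blood group protein, had 0, 386 and 863 against 0, 29.3 and 217. *Sptb*, a spectrin chain that muscle also makes, went the other way at 0, 1.07 and 5.27 CPM against 0, 54.0 and 167 (adjusted p = 0.049). None of the 38 was higher in the spleen when libraries were scaled to the blood cell lists, *Sptb* was still higher in the bone, and the median was 0.45.

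*Alas2* and *Rhd* are the most abundant called erythroid genes whose promoters hold the letters AGATAA, a form of the site of GATA factors, which drive red cell genes. They are shown from 250 bases before to 50 after the RefSeq start (GRCm38.p6), 5′ to 3′ on the gene's strand, with the match on either strand in capitals.
Alas2, chrX:150547167-150547466, plus strand: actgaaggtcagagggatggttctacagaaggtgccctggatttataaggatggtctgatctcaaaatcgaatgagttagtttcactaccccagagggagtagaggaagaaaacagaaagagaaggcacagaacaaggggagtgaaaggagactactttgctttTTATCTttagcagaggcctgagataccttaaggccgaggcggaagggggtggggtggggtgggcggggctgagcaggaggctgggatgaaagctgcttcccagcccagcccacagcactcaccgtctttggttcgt
Rhd, chr4:134864286-134864585, plus strand: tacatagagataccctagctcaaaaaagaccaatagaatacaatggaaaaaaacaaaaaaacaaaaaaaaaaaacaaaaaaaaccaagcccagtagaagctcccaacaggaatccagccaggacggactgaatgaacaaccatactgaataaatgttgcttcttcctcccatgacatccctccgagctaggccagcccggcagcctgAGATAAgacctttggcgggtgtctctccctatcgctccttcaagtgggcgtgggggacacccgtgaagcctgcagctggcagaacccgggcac
The match begins at -86 in *Alas2*, on the other strand, and at -43 in *Rhd*. These letters are in 8 of 25 erythroid promoters with a RefSeq sequence, against 11.4% of all 27025. CCACACC, a form of the KLF1 site, is in 1 of the 25, that of *Tmcc2*, against 7.69% of all. A match describes the letters only.

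Globin genes carried more of the spleen's counts than any other group. The 6 adult globins took 13.1% to 31.9% of counts in the spleen and 1.25% to 7.96% in the bone. *Hbb-b1* had 53799, 188917 and 267109 CPM in the spleen and 5321, 33785 and 69389 in the bone (difference 2.68, SE 0.60, adjusted p = 0.038), and the lowest spleen library, wild-type 2, lay inside the range of the bone. *Hbb-b2* had 10015, 28619.7 and 37449.9 against 1288, 3905 and 7196, and *Hba-a1* 6825, 12427 and 16799 against 467, 1584 and 3919, both without overlap. In wild-type library 2 of both tissues the beta-globin counts were split in another way, with 48.5% of them on *Hbb-bs* and *Hbb-bt* in the spleen and 42.1% in the bone, against at most 0.259% in the other 10 libraries. What set this split was not tested. These 4 entries are adult beta-globin genes of similar sequence, and they are read here as a sum: beta-globin took 12.4% to 30.3% of spleen counts and 1.14% to 7.57% of bone counts. All 3 called globins were still higher in the spleen after scaling to the blood cell lists.

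Neutrophil genes gave few calls. None of 10 primary granule genes was called, and of 27 secondary granule and mature neutrophil genes 1 was higher in the spleen and 1 in the bone. Of all genes, 1.91% and 2.85% were, so these counts are near the share over all genes. The medians were 0.53 and 0.73, beside 0.63 for all genes in the same fit. They were 1.72 and 1.86 in wild-type libraries alone, -0.43 and -0.087 in *Scx*-/- libraries alone, and -1.21 and -0.89 with libraries scaled to the blood cell lists. The wild-type set holds spleen wild-type 1, with 1.57% of counts on the mature list against 0.269% to 0.743% in the other spleen libraries. No median of all genes was taken by genotype, and the difference between genotypes was not tested. *S100a9*, a calcium-binding protein of mature neutrophils, had 869.5, 1863 and 4901 CPM in the spleen and 42.4, 1246 and 2403 in the bone (adjusted p = 0.20), and its partner *S100a8* 838, 1452 and 3372 against 669, 1279.7 and 1794 (adjusted p = 0.37). *Camp*, the cathelicidin of secondary granules, had 116, 437 and 790.0 against 191, 459 and 719. *Ngp*, another granule protein, was the member higher in the spleen, at 206, 937 and 2139 against 127, 369.6 and 789.8 (difference 1.45, SE 0.47, adjusted p = 0.047). Its difference turned to -0.14 with libraries scaled to the blood cell lists. *Mmp9*, a gelatinase that osteoclasts also secrete, was higher in the bone at 284, 1184 and 1994 CPM against 0, 13.7 and 173 in the spleen. The defining gene of primary granules, *Mpo*, had 2 counts in the spleen and 0 in the bone.

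The counts on 17 blood cell lists made up 3.79% to 6.27% of a spleen library and 1.12% to 2.79% of a bone library, and the makeup of that part differed. Secondary granule and mature neutrophil genes were 4.87% to 25.1% of it in the spleen (median 12.3%) and 22.9% to 38.9% in the bone (median 31.2%). *Mmp9*, which osteoclasts also secrete, held 45 of the list's 121 counts in bone wild-type 3 and 17 of its 243 in bone wild-type 2. The bone share is lower without *Mmp9*, and that share was not computed. Primary granule genes were 0.341% to 1.00% in the spleen and 1.10% to 4.61% in the bone, without overlap, but without *Gstm1*, an enzyme that many tissues make, they were 0.159% to 0.780% and 0.448% to 2.23%. Monocyte genes were 1.01% to 3.38% (median 2.38%) and 4.04% to 13.7% (median 8.36%). Without *Fn1* they were 0.848% to 2.92% (median 2.01%) and 1.14% to 3.81% (median 1.86%), so the order of the medians turned. Both lists thus overlapped once that member, chosen after its counts were seen, was left out. Mature B cell genes were 4.51% to 14.5% in the spleen (median 8.96%) and 0.384% to 4.44% in the bone (median 1.37%). Erythroid genes, globins apart, were alike at 22.8% to 59.1% and 18.4% to 51.6%. Some members also belong to bone cells, so the neutrophil and erythroid lists were compared again without *Mmp9* and *Car2*, which the osteoclast list shares. There were then 0.107 to 0.971 neutrophil counts per erythroid count in the spleen (median 0.491) and 0.467 to 1.95 in the bone (median 1.11). The ranges overlap, with 4 spleen libraries inside the range of the bone, and these sums over members were given no test.

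**Figure D4:**
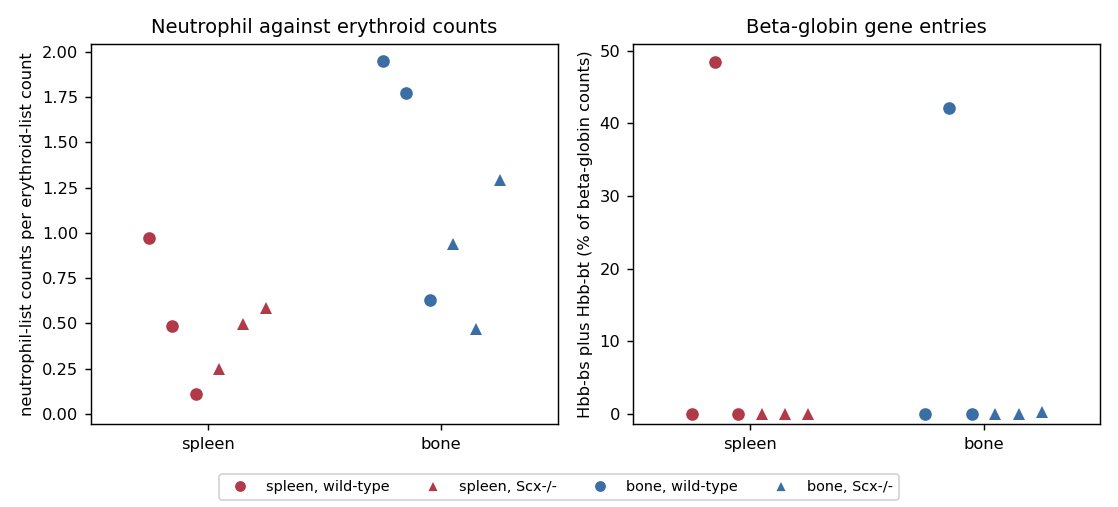
Left, counts on the neutrophil lists per count on the erythroid list in each library, without the 2 genes shared with osteoclasts; right, the share of beta-globin counts on Hbb-bs and Hbb-bt (%). Spleen is red, bone blue, circles are wild-type and triangles Scx-/-; wild-type library 2 stands alone on the right in both tissues, at 48.5% and 42.1%.

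Genes of early B cells gave few calls. Of 12 tested, *Cd24a* alone was called, higher in the spleen, and red cell precursors express this surface protein as well (1039, 2748 and 5734 CPM against 117, 521 and 1400.2). The list was divided, with 6 members positive, 6 negative and a median of 0.46. *Vpreb3*, which associates with the pre-B cell receptor, had 15.8, 175 and 217 CPM in the spleen and 0, 36.2 and 165 in the bone (adjusted p = 0.30). The members described next had more counts in the bone, none passed, and they were picked after their values were seen. *Vpreb1*, a surrogate light chain, had 8, 3, 3 and 5 counts in 4 bone libraries and 1 count in the spleen, which is a difference of -4.81 (SE 1.65, adjusted p = 0.066). *Igll1*, its partner, had 31 counts in 2 bone libraries and 2 in the spleen (adjusted p = 0.18), and *Dntt*, the terminal transferase, had 14 counts in 2 bone libraries and 2 in the spleen (adjusted p = 0.43). Together with *Rag1*, of the recombinase, these came to 77 counts in the bone and 11 in the spleen, although the bone had the fewer counts in all. With libraries scaled to the blood cell lists, *Vpreb1* (adjusted p = 0.00069), *Igll1* (0.024) and *Sox4* (3.6e-05) were called higher in the bone, a scaling under which 9.92% of all genes were, and *Cd24a* was no longer called (difference 0.90, adjusted p = 0.26). No bone library held all 4 genes, and *Rag1* had all its 13 bone counts in 1 library.

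The smaller blood lists added few calls. Of 12 megakaryocyte and platelet genes 4 were higher in the spleen, *Fermt3*, *Itga2b*, *Clec1b* and *Gp5*, while the platelet chemokines *Pf4* and *Ppbp* were at 0 in all 96 libraries. Monocyte genes gave *Ctss*, a lysosomal protease, at 126, 425 and 627 CPM against 0, 79.6 and 237, and in the other direction *Fn1*, fibronectin, which matrix cells also make, at 82.6, 219 and 327 against 748, 1133 and 1372. Among 8 plasma cell genes *Jchain*, the joining chain of secreted antibodies, was higher in the spleen (15.8, 95.7 and 198 CPM, none in the bone) and *Sdc1*, a proteoglycan that epithelia share, in the bone (0, 0 and 10.7 against 0, 55.1 and 184). Of 7 eosinophil genes *Ear6* was called, of 7 mast cell and basophil genes none, and of 14 stem and progenitor genes *Spi1*, the factor PU.1 of myeloid and B cells, at 81.2, 108 and 171 CPM against 0, 0 and 17.3. *Kit*, the receptor of blood stem cells, had 0 to 47.0 CPM in the spleen and no bone count (adjusted p = 0.082). Of 4 embryonic and fetal-type globins 3 had no count, and *Hbb-y* had 1 count in the spleen. All 30 proliferation genes had a positive difference, with a median of 1.82 beside 0.63 for all genes in the same fit. The share of all genes with a positive difference was not taken. Of the 30, 3 were called, *Mki67*, *Mcm5* and *Cdk1*, against 1.91% of all genes. *Mki67*, the Ki-67 antigen, had 177, 528 and 1312 CPM against 23.7, 189 and 318 (adjusted p = 0.030). In wild-type libraries alone 8 were called, with a median of 2.5, and in *Scx*-/- libraries alone none, with a median of 0.84. The list took 0.198% to 1.38% of counts in the spleen and 0.0887% to 0.398% in the bone, so the tissues overlapped. Spleen wild-type 3 and *Scx*-/- 1 had the highest shares (1.38% and 0.997%) and also the highest erythroid shares (3.27% and 3.53%). After scaling to the blood cell lists none of the 30 was called and the median was 0.16.

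On the side of the bone, matrix genes of osteoblasts were called almost throughout. Of 22 tested members 18 were higher in the bone and none in the spleen, against 2.85% of all genes, with a median of -6.57. *Col1a1* and *Col1a2*, the chains of type I collagen, had 37850.1, 48574 and 57775 CPM and 37259, 45473 and 58586 CPM in the bone, against 75, 233 and 447 and 321, 476 and 523 in the spleen. The difference of *Col1a1* (chromosome 11, 94936224 to 94953042) was -7.36 (SE 0.32, adjusted p = 2.8e-111). *Ibsp*, bone sialoprotein, had 679, 1355 and 2436 CPM and no spleen count, at least 722-fold higher in the bone. *Bglap*, osteocalcin, had 0, 354 and 485 CPM, and its counts may be shared with its copy *Bglap2*. *Dmp1*, a matrix protein of osteocytes, was at least 226-fold higher in the bone. *Dlx5*, *Bmp3*, *Sost* and *Phospho1* were not called. Their fitted differences ran from -4.95 to -2.45.

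The promoters of *Sparc* and *Spp1*, the most abundant called members that hold ACCACA, a core form of the site of RUNX2, the factor that commits cells to bone, are shown as above with the match in capitals.
Sparc, chr11:55420031-55420330, minus strand: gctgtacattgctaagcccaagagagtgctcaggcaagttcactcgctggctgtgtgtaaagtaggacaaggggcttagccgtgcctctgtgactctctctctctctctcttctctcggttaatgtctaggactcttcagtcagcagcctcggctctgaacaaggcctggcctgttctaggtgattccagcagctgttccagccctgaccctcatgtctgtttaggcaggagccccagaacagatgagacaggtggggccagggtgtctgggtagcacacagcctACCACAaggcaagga
Spp1, chr5:104434861-104435160, plus strand: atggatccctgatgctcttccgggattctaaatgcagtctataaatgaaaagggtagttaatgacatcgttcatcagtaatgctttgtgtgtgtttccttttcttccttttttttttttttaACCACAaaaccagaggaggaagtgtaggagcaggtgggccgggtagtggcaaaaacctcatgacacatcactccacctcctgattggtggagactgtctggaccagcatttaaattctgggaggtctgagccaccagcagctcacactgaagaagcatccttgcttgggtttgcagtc
*Sparc*, osteonectin, had 885, 1402 and 2037 CPM in the spleen and 11592, 20586 and 29182 in the bone, and its match begins at 35 after the start. *Spp1*, osteopontin, had 0, 1.72 and 25.7 CPM against 2928, 3558 and 4876, and its match begins at -128. These letters are in 5 of 16 osteoblast promoters in the table and in 16.9% of all.

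Osteoclast genes were higher in the bone in 6 of 13. *Ctsk*, the collagen-cutting protease cathepsin K, had 875, 1243 and 1825 CPM against 0, 0 and 48.2 in the spleen (difference -6.17, SE 0.63), and *Acp5*, the tartrate-resistant phosphatase, 658, 2062 and 2794 against 123, 222 and 338. *Acp5* thus had counts in every spleen library, and red pulp macrophages are known to make it. *Car2*, a carbonic anhydrase that osteoclasts and red cells both use, was called the other way at 418, 2487 and 5412 CPM in the spleen against 237, 367 and 1649.6. The fusion gene *Dcstamp* and the proton pump subunit *Atp6v0d2* had no spleen count.

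Cartilage genes were nearly absent from the spleen, and connective tissue genes were present there at lower levels. Of 18 chondrocyte genes 16 were higher in the bone and 15 had no spleen count, with a median of -8.39 as fitted and -7.33 at the bounds. *Col2a1*, the main collagen of cartilage, had 2886, 4545 and 6302 CPM, at least 2503-fold above the spleen. *Col10a1*, the collagen of hypertrophic chondrocytes, had 149, 738 and 1404 CPM, and *Acan*, aggrecan, 241, 295 and 382. Of 19 fibroblast and tendon genes 16 were higher in the bone. *Col3a1*, type III collagen, had 214, 332 and 523 CPM in the spleen and 2430.2, 3574 and 4468 in the bone. *Dcn*, the proteoglycan decorin, had 1734, 1932 and 2610.3 CPM against 6.90, 87.8 and 150.0, and *Tnmd*, tenomodulin of tendon cells, 0, 59.1 and 301 against no spleen count. *Scx*, *Mkx* and *Kera* were not called. Marrow niche genes were split, with *Igfbp5* (435, 579 and 946 CPM against 0, 11.8 and 29.9) and *Foxc1* higher in the bone out of 12. *Cxcl12*, the chemokine that retains blood stem cells, had 118, 282 and 494 CPM in the bone and 47.4, 417 and 754 in the spleen (adjusted p = 0.55). *Lepr*, a marker of marrow stroma, had no bone count. Of 12 adipocyte genes 4 were higher in the bone, among them the lipoprotein lipase gene *Lpl*, and none of 14 endothelial genes was called. Their median was -0.53, and it turned to 0.29 with a low-count filter, 0.24 without bone *Scx*-/- 1 and 0.44 in wild-type libraries alone.

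Skeletal muscle genes gave the largest differences among called genes. All 25 tested were higher in the bone, and none overlapped between the tissues. They filled 8 of the 10 places among genes with the largest difference toward the bone, and *Col2a1* and *Col11a1* took the rest. *Acta1*, skeletal muscle actin (chromosome 8, 123891769 to 123894751), had 7489, 22341 and 36573 CPM in the bone and 1 count in the spleen, a difference of -13.73 (SE 0.51, adjusted p = 2.9e-157). *Ckm*, muscle creatine kinase, had 3892, 8469 and 13389.5 CPM against 0, 0 and 3.45. The fast myosin *Myh4* had 2054, 5403 and 7499 CPM and no spleen count, and *Pvalb*, the calcium buffer of fast fibres, 3112, 5552 and 7128. The list took 3.92% of counts in wild-type library 1 of the bone and 7.02% to 13.3% in the other 5, against 0.0242% to 0.0432% in the spleen. Of the 440 genes higher in the bone, 161 were higher still in the muscle libraries of the series. The same count over all genes tested was not taken, so 161 has no share to be read against. With the list removed from the counts, 268 genes were higher in the spleen and 415 in the bone. The part of muscle RNA in the values of genes outside the list was not tested.

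*Acta1* and *Ckm* are the most abundant called muscle genes whose promoters hold CAGCTG, a form of the E box that muscle regulatory factors bind, shown as above.
Acta1, chr8:123894726-123895025, minus strand: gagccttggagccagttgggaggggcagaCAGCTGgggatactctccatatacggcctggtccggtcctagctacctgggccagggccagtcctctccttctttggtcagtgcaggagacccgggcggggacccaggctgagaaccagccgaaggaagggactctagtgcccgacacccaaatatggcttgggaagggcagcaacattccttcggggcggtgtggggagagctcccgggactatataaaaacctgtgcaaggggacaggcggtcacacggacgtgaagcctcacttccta
Ckm, chr7:19410844-19411143, plus strand: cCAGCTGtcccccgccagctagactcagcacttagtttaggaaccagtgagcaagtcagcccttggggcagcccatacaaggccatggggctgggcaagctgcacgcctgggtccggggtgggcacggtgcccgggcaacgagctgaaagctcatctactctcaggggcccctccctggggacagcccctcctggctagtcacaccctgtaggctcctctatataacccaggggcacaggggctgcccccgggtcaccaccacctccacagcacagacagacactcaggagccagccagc
The letters read alike on both strands and begin at -221 in *Acta1* and at -249 in *Ckm*. They are in 10 of 20 muscle promoters in the table and in 16.1% of all 27025. For the B cell list, ATGCAAA, the octamer that OCT2 binds, was in 1 of 14 promoters against 4.59% of all. The class II list had TGATTGG, a Y box, in 6 of 7 against 8.2%, but 8 of the 10 genes on that list had no count in any library.

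Genes known from the acinar cells of the pancreas had counts in the spleen, and where these came from was not tested. They took 11.8% and 5.28% of counts in *Scx*-/- libraries 2 and 3, 1.84% and 1.43% in wild-type libraries 1 and 2, and 0.0116% or less in the other 2, against at most 0.00966% in the bone. *Ctrb1*, chymotrypsinogen, ran from 4.27 to 22298 CPM in the spleen with none in the bone, and did not pass (adjusted p = 0.21). Of 18 tested, 2 were called, *Sycn* among them, while 14 were called in wild-type libraries alone and 7 with libraries scaled to the blood cell lists. The fitted median of the list was 11.47, or 8.15 at the lower bounds. With the list removed from the counts the calls were 293 and 436. Of 6 epidermal genes none was called.

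The 5 most abundant genes of the spleen by mean CPM, which is not corrected for length, were *Hbb-b1*, *Hbb-b2*, *Hba-a1*, *Hbb-bs* and the entry *Rnr2*. *Hbb-bs* owed its place to wild-type library 2, at 50719 CPM against 5.51 to 64.1 in the other 5. Those of the bone were *Col1a1*, *Col1a2*, *Hbb-b1*, *Rnr2* and *Acta1*. *Rnr2* had 6562, 7830.4 and 10234 CPM in the spleen and 9354, 27360.4 and 37705 in the bone (difference -1.48, SE 0.26, adjusted p = 1.6e-06). With every library thinned to 42272 counts, 6362 ± 648 genes (SD, n = 6) had a count in the spleen and 5199 ± 696 in the bone, a difference of 1163 (exact permutation test over all assignments of libraries to tissues, two-sided, p = 0.013).

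Genotype was a covariate above and was then set aside in 2 ways. In the wild-type libraries alone, 113 genes were higher in the spleen (0.806% of 14017) and 284 in the bone (2.03%), and in the *Scx*-/- libraries alone 36 (0.269% of 13379) and 153 (1.14%). Of the 295 genes higher in the spleen 17 were called in each genotype alone, and of the 440 higher in the bone 124 were. The sign was the same in both genotypes for all 295 and for 438 of the 440, which calling them on all 12 libraries nearly fixes. No gene passed for the interaction of tissue and genotype in edgeR or DESeq2, while 938 and 552 had an unadjusted p under 0.05. The smallest p was that of *Cldn13*, a claudin of red cell precursors (adjusted p = 0.26). It had 195, 352 and 985 CPM in the wild-type spleen and 547, 42.8 and 187 in the *Scx*-/- spleen, and in the bone 0 in all 3 wild-type libraries and 204, 225 and 142 in the *Scx*-/- ones. *Taf6l*, *Klk1*, *H19* and *Fam181b* came next, each with an adjusted p of 0.59. *Klk1* had 927 and 369 CPM in *Scx*-/- spleen libraries 2 and 3, which had the most pancreatic counts. It had 0 in spleen wild-type 3 and *Scx*-/- 1, which had the least, and a shared source was not tested. *H19*, an imprinted RNA of growing tissues, was higher in the bone in both genotypes at 711 to 2398 CPM against at most 38.5 in the spleen. The erythroid list was called in 17 of its genes in wild-type libraries and in 2 in *Scx*-/- libraries, with medians of 3.10 and 1.01, and its share of bone counts was 0.271% to 0.418% and 0.461% to 1.40%. The difference between these list medians was not tested. The sex-linked genes differed too: 2 of the 3 *Scx*-/- bone libraries had the opposite pattern of *Xist* and Y-linked counts to that of the spleen library with the same number.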

How the data were processed

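Whole organs of 3-week-old mice gave 96 libraries, of which the 12 of spleen and bone were compared and the other tissues served for rank and muscle levels. The authors extracted total RNA with Trizol, made multiplexed libraries with Nextera XT and sequenced them on an Illumina instrument. Per the labels, reads were mapped to mm10 with Bowtie2 and counted with HTSeq. The sources used here give no versions, annotation or strand setting, so overlapping and antisense genes cannot be told apart. The deposited values are raw counts per gene symbol. Genes at 0 in all 12 libraries were removed, which left 15424 of 41575 symbols.

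Counts were scaled by TMM and fitted with edgeR 4.0.16 in R 4.3.3 (quasi-likelihood, robust, genotype and tissue as terms), with Benjamini-Hochberg adjustment. The standard error is the size of the log2 difference divided by the square root of F. DESeq2 1.42.0 was an alternative. Gene counts at equal depth were compared by an exact permutation test. Named genes were the 10 with the largest difference in each direction among called genes without overlap and with a mean of at least 100 CPM, *Scx*, the 3 most abundant of each list, members called against the rest of their list, the 5 with the smallest interaction p, and the 5 most abundant of each tissue. Other members were named after their values were seen. Members and lists were chosen with earlier results of these data known. The fit was tested on simulated data of 14589 genes: of 50 genes changed by 1, 2, 3 or 4 on the log2 scale, 0, 1, 15 and 31 were called. Gene coordinates are from the GENCODE annotation of GRCm38, and promoters from RefSeq (GRCm38.p6). Other settings tried were other scalings, a low-count filter, thinning, removal of muscle, globin or pancreatic genes, leaving out each library, a replicate block and a sex term. The 15 mitochondrially encoded genes of a list were not in the table under their listed symbols. The entries *Rnr1* and *Rnr2* were not matched to *mt-Rnr1* and *mt-Rnr2* of that list, so mitochondrial counts are not excluded. Values of some list members are not reported here.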

Additional observations from a re-analysis of the deposited data

Results flagged for a closer look

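In 4 of 67 groups of 6 values, the highest or lowest library stood apart by Dixon's test, and chance flags about 1 group in 20. The secondary granule and mature neutrophil list took 1.57% of counts in wild-type library 1 of the spleen and 0.269% to 0.743% in the other 5. The stem and progenitor list took 0.00946% of counts in *Scx*-/- library 3 of the bone, the shallowest library, and 0.0386% to 0.0468% in the other 5. *Hbb-bs* and *Hbb-bt* held 48.5% of beta-globin counts in wild-type library 2 of the spleen and 42.1% in wild-type library 2 of the bone, against at most 0.0224% and 0.259% in the others of each tissue.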

How the results depend on the processing

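Of 125 recomputed counts of genes, 103 stayed within 1.5 times. The 295 genes higher in the spleen became 76 with libraries scaled to the blood cell lists, 164 with libraries thinned to equal depth and 450 with DESeq2. Leaving out 1 library gave 187 to 275, with 187 without spleen wild-type 1 and 194 without spleen wild-type 2 or bone wild-type 2. The 440 higher in the bone became 1530 scaled to the blood cell lists, and 333 to 427 with 1 library left out. The interaction gave 0 to 1 gene with 1 library left out. In wild-type libraries alone, 113 became 42 to 210 with 1 library left out, and 284 became 109 to 303, or 168 with a low-count filter. In *Scx*-/- libraries alone, 36 became 21 to 49 with 1 library left out, 65 with the filter and 110 with DESeq2, and 153 became 102 to 152, or 252 with DESeq2.

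With the replicate number as a block, 199 genes were higher in the spleen and 290 in the bone, and 135 in the bone of wild-type libraries alone. The labels do not state a pairing, so the main fit did not use the numbers. Same-numbered spleen and bone libraries correlated at 0.037, 0.047 and 0.029 (wild-type) and 0.013, -0.072 and 0.044 (*Scx*-/-) over 3659 genes. None of these was over 0.1. Other-numbered ones gave -0.031 to -0.0054 (wild-type) and -0.080 to 0.087 (*Scx*-/-). Each wild-type library thus correlated best with its own number. Wild-type libraries numbered 2 also shared the split of beta-globin counts in all 16 tissues, at 38.5% to 59.6% on *Hbb-bs* and *Hbb-bt*. Both come from the data and not from the labels. If a wild-type number marks a mouse, the fit with the block is the paired one, and it gave fewer calls than the main fit. The sex-linked counts of *Scx*-/- bone libraries 1 and 2 were opposite to those of the same-numbered spleen libraries, and the crossed pairs (spleen 1 with bone 2, spleen 2 with bone 1) correlated at 0.087 and 0.024. The *Scx*-/- values and the counts with the block thus rest on numbers that may be exchanged.

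Scaling to the blood cell lists moved the median of all genes from 0.63 to -0.82, and with that shift turned *Ngp* to -0.14 and the list medians of early B cells to -1.21, primary granules to -1.21, mature neutrophils to -0.89, monocytes to -0.23 and stem cells to -0.83. The primary granule median was also -0.68 with the filter, -0.19 with DESeq2, -0.12 without spleen wild-type 1 and -0.43 in *Scx*-/- libraries alone. The mature neutrophil median was -0.087 in *Scx*-/- libraries alone. The cause of the other moves was not tested. Depth limits the bone, where 3 counts are worth 12.5 to 71.0 CPM in a single library.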

Other observations

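Over all 16 tissues, the wild-type libraries numbered 2 had 38.5% to 59.6% of beta-globin counts on *Hbb-bs* and *Hbb-bt*, with a median of 47.5%, and those numbered 1 and 3 at most 0.0371% and 0.352%. *Hba-a2* had counts in 14 of 16 wild-type libraries numbered 3 and in 15 of 16 *Scx*-/- libraries numbered 3. *Xist* exceeded the Y-linked sum in 15 of the 16 *Scx*-/- libraries numbered 1, with the bone as the exception, and in 2 of the 16 numbered 2, the bone and the cartilage.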
